A study of Mus musculus with 2 samples.

Results

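The 9 genes described here, *Bax*, *Bak1*, *Bcl2*, *Bcl2l1*, *Bcl2l11*, *Bbc3*, *Pmaip1*, *Mcl1* and *Apaf1*, are core regulators of apoptosis and were chosen by symbol from the 28692 genes of the count tables. All 9 were listed in both libraries. The samples were retinal cells of mouse embryos at E14.5, heterozygous for *LHX4::GFP* (Tg(Lhx4::EGFP)KN199Gsat/Mmucd), a bacterial artificial chromosome transgene in which *Lhx4* sequence drives GFP, a marker of early cone photoreceptors at this age. GFP-positive retinas from 2 litters were pooled before the sort, so the GFP+ and the GFP- cells carried the same transgene and came from the same embryos. Each gate gave 1 droplet library in which transcripts are counted from their 3′ end as unique molecular identifiers (UMIs). There were no replicates, so no test was made, and every interval in parentheses below is a 95% interval of counting error only.

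After the study's limits on genes and mitochondrial reads per cell, 3689 GFP+ cells (15503658 UMIs, median 3894 per cell) and 3389 GFP- cells (30094636 UMIs, median 8848) were kept. Cells were grouped by the UMIs of marker genes that include none of the 9. Among GFP+ cells 3609 met the cone rule. Among GFP- cells the rules gave 1649 progenitors (488 of them mitotic), 721 neurogenic cells, 191 newborn ganglion cells, 305 differentiated ganglion cells, 301 amacrine/horizontal cells and 72 cells with cone markers. Marker levels within the groups are fixed by the rules, so the gates were compared before grouping: the summed cone markers stood at 4207 UMIs per 1000000 UMIs (CPM) in the GFP+ library and 31.4 CPM in the GFP- library, and the summed progenitor markers at 124 and 4283 CPM. As a gauge of free RNA, the progenitor gene *Sfrp2*, which the cone rule does not use, was at 1548 CPM in progenitors (median depth 9373 UMIs) and at 23.8 CPM, in 8.09% of cells, in GFP+ cones (median depth 3882 UMIs).

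Apoptosis through the mitochondrion is set by the BCL2 family. BAX and BAK1 form pores in the outer mitochondrial membrane, the pro-survival proteins BCL2, BCL-XL (encoded by *Bcl2l1*) and MCL1 hold them in check, and the BH3-only proteins BIM (*Bcl2l11*), PUMA (*Bbc3*) and NOXA (*Pmaip1*) bind and neutralise the pro-survival proteins. Cytochrome c released through the pores joins APAF1 in the apoptosome, which activates caspase 9. In the mouse retina newborn neurons are made in excess, and many ganglion cells are later removed by a death that needs BAX.

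The sequences upstream of *Bcl2* and *Bcl2l1* are shown because the levels of these genes ran in opposite directions across the cell groups, and that of *Bbc3* because its level was high in 2 groups. RefSeq windows of GRCm38.p6 (250 bases before to 50 bases after a start site) matched 8 members with 13 windows. The lines give the 250 bases before 1 start site of each gene, with the word GGGCGG, an SP1 site, in capitals on either strand. *Bcl2* had 1 window, and *Bcl2l1* and *Bbc3* had 3 each, of which only the most upstream is shown.
*Bcl2*, chr1:106714291-106714540, minus strand: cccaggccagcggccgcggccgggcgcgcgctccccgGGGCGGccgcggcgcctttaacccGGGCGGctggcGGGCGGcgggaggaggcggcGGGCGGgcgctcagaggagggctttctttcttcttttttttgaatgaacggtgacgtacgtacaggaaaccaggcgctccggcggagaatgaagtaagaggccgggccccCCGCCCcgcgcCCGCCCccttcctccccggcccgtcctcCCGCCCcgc
*Bcl2l1*, chr2:152831729-152831978, minus strand: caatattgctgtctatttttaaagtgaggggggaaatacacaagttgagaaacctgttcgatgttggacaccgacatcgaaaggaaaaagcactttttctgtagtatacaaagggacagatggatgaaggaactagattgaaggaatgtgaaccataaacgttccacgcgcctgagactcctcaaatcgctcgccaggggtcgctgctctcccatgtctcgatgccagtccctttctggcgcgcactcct
*Bbc3*, chr7:16309333-16309582, plus strand: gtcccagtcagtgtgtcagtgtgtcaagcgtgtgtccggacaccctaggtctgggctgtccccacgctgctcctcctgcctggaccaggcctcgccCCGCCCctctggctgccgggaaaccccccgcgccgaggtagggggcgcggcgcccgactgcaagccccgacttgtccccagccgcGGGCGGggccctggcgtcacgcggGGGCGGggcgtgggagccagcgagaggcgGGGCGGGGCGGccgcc
The stretch of *Bcl2* held 7 such words, 36 CpG and 74.8% G or C, and that of *Bbc3* held 5 words, the last 2 of them overlapping, 27 CpG and 76.4% G or C. The stretch of *Bcl2l1* held 0 words, 12 CpG and 47.6% G or C. Of all 32851 RefSeq windows 35.7% held the word, and of the members' 13 windows 9 did, from 6 members. Overlapping windows of *Bbc3* were counted separately here. A p53 site of 1 decamer, by its consensus, occurred in 1 member window, that of *Bax*, against 8.36% of all windows.
*Bax*, chr7:45467083-45467106, minus strand, p53 decamer in capitals: atatcccAGGCAAGCTTtgaactt
An E2F word (TTTGGCGC, TTTCCCGC, TTTCGCGC or TTTGCCGC) occurred in 1 further window of *Bcl2l1* (2.26% of all windows), and the stress-response word TGATGNAAT in 0 member windows (0.965% of all). Both strands were searched for every word. These matches describe letters only, and no reading of factor binding was made here.

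Of the effector genes *Bak1* was higher in GFP- cells, while the log2 ratio of *Bax* (0.39, GFP+ over GFP-) was near the median of all genes with enough UMIs (0.30). *Bax* was at 265 CPM (257 to 274) in the GFP+ library and 203 CPM (198 to 208) in the GFP- library, a ratio of 1.31 (1.26 to 1.36), though in UMIs per 100 cells, which follow depth, it was at 112 and 180.3. *Bak1* was at 8.32 CPM (6.95 to 9.89) in GFP+ and 21.9 CPM (20.3 to 23.6) in GFP- cells, 2.63-fold lower in GFP+ (2.18 to 3.20). The annotation places a gene of the opposite strand, *Ggnbp1*, across the 3′ end of *Bak1*, so some of its reads could belong to either gene if strand was not used in counting.

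Among the pro-survival genes, *Bcl2l1* was the member with the highest ratio of GFP+ to GFP- cells. It was at 188 CPM (181 to 195) in GFP+ against 50.2 CPM (47.7 to 52.8) in GFP- cells, 3.74-fold higher (3.52 to 3.99). *Bcl2* ran the other way, with 8.26 CPM (6.89 to 9.82) against 52.4 CPM (49.8 to 55.1), 6.35-fold lower in GFP+ (5.30 to 7.66). *Mcl1* was at 35.2 and 39.4 CPM, a ratio of 0.892 (0.804 to 0.988).

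The BH3-only genes also split. *Bcl2l11* was at 4.90 CPM (3.86 to 6.14) in GFP+ and 19.4 CPM (17.9 to 21.05) in GFP- cells, 3.96-fold lower (3.11 to 5.10), while *Bbc3* was at 47.8 CPM (44.4 to 51.4) and 29.0 CPM (27.1 to 31.0), 1.65-fold higher (1.49 to 1.82), though in UMIs per 100 cells it was at 20.1 and 25.8. *Pmaip1* had 9 UMIs in the GFP+ and 14 UMIs in the GFP- library and is counted between the gates and in the sums of BH3-only UMIs, but had too few UMIs for a call in the comparisons of cell groups. *Apaf1* was at 8.13 and 7.21 CPM, a ratio of 1.13 (0.898 to 1.41). A gene is called past 2-fold at a ratio of 2 or more or 0.5 or less with at least 20 UMIs over both groups. Of the 9 members 1 was past 2-fold higher and 3 lower in GFP+ cells, where 37.9% of the 14167 genes with enough UMIs were past it, 22.4% higher and 15.5% lower. The members' median log2 ratio was 0.18 and that of all these genes 0.30. Relative to the latter *Bcl2l1* stood at 1.60 on the log2 scale, *Bcl2* at -2.97, *Bcl2l11* at -2.29 and *Bak1* at -1.70. *Bbc3* stood at 0.42 and *Bax* at 0.08.

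Across the cell groups *Bcl2* was highest in progenitors and lowest in cones. In CPM it was at 76.7 in non-mitotic progenitors, 72.1 in mitotic progenitors, 44.2 in neurogenic cells, 23.5 in amacrine/horizontal cells, 19.9 in newborn ganglion cells, 14.4 in differentiated ganglion cells and 7.95 in GFP+ cones. The steps from mitotic progenitors to neurogenic cells (1.63, 1.39 to 1.92) and from these to amacrine/horizontal cells (1.88, 1.39 to 2.60) exceeded counting error. The intervals of the ratio between the next neighbours, amacrine/horizontal, newborn ganglion and differentiated ganglion cells, held 1. With every cell thinned to 3200 UMIs, 20.4% of progenitors (18.5 to 22.4), 12.6% of neurogenic cells (10.3 to 15.3), 3.93% of differentiated ganglion cells (2.05 to 6.77) and 2.59% of GFP+ cones (2.06 to 3.22) kept a *Bcl2* UMI, against 48.0%, 26.4%, 12.1% and 3.19% of these cells unthinned.

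*Bcl2l1* ran the other way, lowest in progenitors and highest in GFP+ cones. It was at 40.2 CPM in non-mitotic and 38.5 CPM in mitotic progenitors, 49.2 CPM in neurogenic cells, 62.7 CPM in newborn ganglion cells, 65.4 CPM in amacrine/horizontal cells, 73.0 CPM in differentiated ganglion cells and 191 CPM (184 to 199) in GFP+ cones. The ratios between amacrine/horizontal and newborn ganglion cells and between differentiated ganglion and amacrine/horizontal cells held 1 in their intervals. The 72 cone-marker cells of the GFP- library lay between differentiated ganglion cells and GFP+ cones, at 115 CPM (84.0 to 154) from 45 UMIs, so the excess in cones was seen on both sides of the gate. After thinning, 46.5% of GFP+ cones (44.7 to 48.3), 36.4% of GFP- cone-marker cells (24.9 to 49.1), 19.7% of differentiated ganglion cells (15.4 to 24.6) and 12.1% of progenitors (10.6 to 13.8) had a *Bcl2l1* UMI, against 53.03%, 47.2%, 55.1% and 30.9% unthinned.

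**Figure D1:**
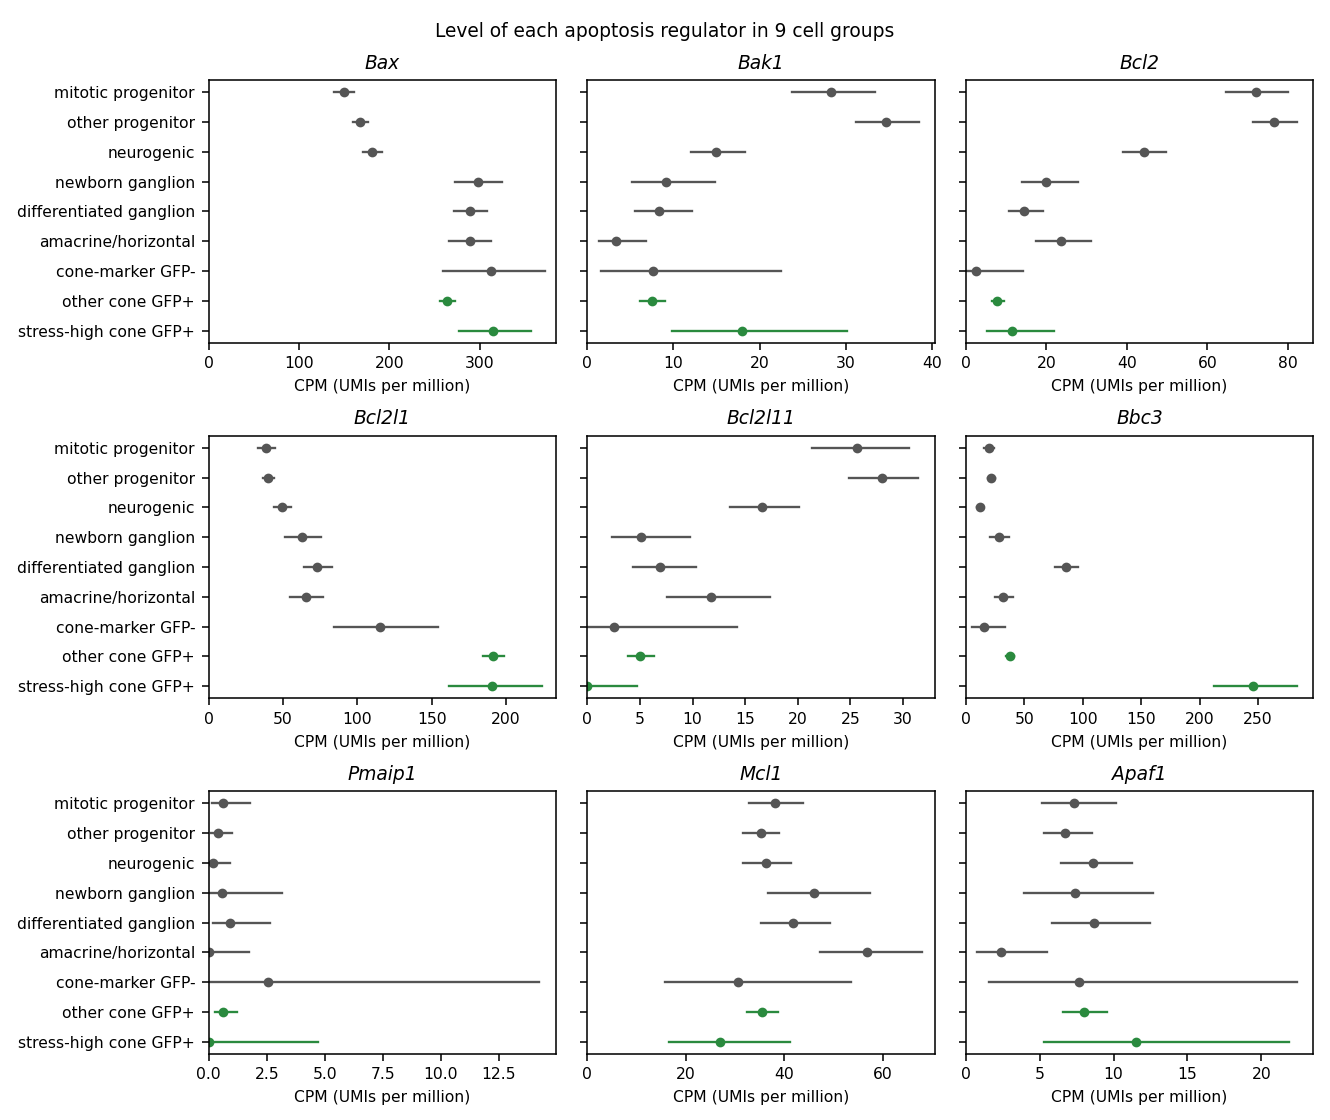
Level of each member in CPM (horizontal axes from 0) in 9 groups of cells that share no cell; points are summed levels, lines are exact Poisson intervals, and green marks GFP+ cells. *Bcl2*, *Bak1* and *Bcl2l11* sit highest in progenitors, *Bcl2l1* in GFP+ cones (191 CPM), and *Bbc3* in stress-high cones (246 CPM) and differentiated ganglion cells (85.5 CPM).

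*Bak1* and *Bcl2l11* were, like *Bcl2*, lower in each neuron group than in progenitors. *Bak1* was at 32.6 CPM in progenitors and 14.95 CPM in neurogenic cells, and at 9.12, 8.37, 3.29 and 8.02 CPM in newborn ganglion, differentiated ganglion, amacrine/horizontal and GFP+ cone cells. *Bcl2l11*, whose product BIM acts when growth factor support is lost, was at 27.3 CPM in progenitors, 16.6 CPM in neurogenic cells, and 5.13, 6.88, 11.8 and 4.74 CPM in the same neuron groups. *Bax* went the other way, at 162 CPM in progenitors, 181 CPM in neurogenic cells, 298 CPM in newborn ganglion cells, 289 CPM in both differentiated ganglion and amacrine/horizontal cells, and 267 CPM in GFP+ cones. The neuron groups thus held more *Bax* and less *Bak1* per 1000000 UMIs than progenitors, although in UMIs per 100 cells, which follow depth, *Bax* was at 111 in GFP+ cones and 150.1 in progenitors.

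*Mcl1* and *Apaf1* showed few steps between groups that were neighbours in the order of their levels. *Mcl1* lay between 26.9 CPM in stress-high cones and 56.9 CPM in amacrine/horizontal cells, and none of the 8 ratios between neighbours in its order left 1 outside its interval. Neighbours in an order differ least, and groups further apart did differ: amacrine/horizontal cells were 1.57-fold over progenitors (1.28 to 1.92). *Apaf1*, which encodes the scaffold of the apoptosome, lay between 6.74 and 11.5 CPM in all groups but amacrine/horizontal cells, where 5 UMIs gave 2.35 CPM (0.763 to 5.49).

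The comparisons of neurons with progenitors all used the same 1649 progenitors, so their values are given side by side and are not independent. In GFP+ cones *Bcl2l1* was 4.83-fold higher (4.42 to 5.28), *Bcl2* 9.46-fold lower (7.83 to 11.5), *Bcl2l11* 5.75-fold lower (4.46 to 7.503) and *Bak1* 4.07-fold lower (3.33 to 5.01). *Bbc3* was 2.29-fold higher (2.01 to 2.62) and *Bax* 1.65-fold higher (1.57 to 1.73). That made 2 members higher and 3 lower of 8 with enough UMIs, beside 43.6% of all genes (28.7% higher, 14.9% lower). The cones and the progenitors came from different libraries, and a difference between the libraries cannot be told apart from one between the cell types. Scaling by total UMIs left the median of all genes at 0.41 and that of the members at 0.09 on the log2 scale. With TMM factors, another scaling of library size, *Bbc3* stood at 0.82 on the log2 scale, below 2-fold. With mean UMIs per cell in place of scaled levels *Bbc3* stood at 0.03 and *Bax* at -0.44 on the log2 scale. Relative to the median of all genes the log2 ratios were 1.86 for *Bcl2l1*, 0.79 for *Bbc3*, 0.31 for *Bax* and -3.65 for *Bcl2*.

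Within the GFP- library the 72 cone-marker cells repeated this for *Bcl2l1* (2.91-fold higher than progenitors, 2.097 to 3.94) and *Bax* (1.93, 1.59 to 2.31), and had 1 *Bcl2* UMI (2.56 CPM). They did not do so for *Bbc3*, which had 6 UMIs, 15.3 CPM (5.63 to 33.4) and a ratio to progenitors of 0.727 (0.265 to 1.60). Of the 8 members 1 was higher and 3 lower in these cells, beside 40.5% of all genes (18.5% higher, 22.0% lower). Set against these cells, the GFP+ cones had *Bcl2l1* 1.66-fold higher (1.24 to 2.29) and *Bbc3* 3.15-fold higher (1.44 to 8.61). *Bbc3* and, on 1 UMI in the GFP- cells, *Bcl2* were the 2 members past 2-fold, beside 25.6% of all genes (20.8% higher, 4.85% lower). The summed cone markers were at 1806 CPM and the summed progenitor markers at 345 CPM in the GFP- cone-marker cells. By the stress rule given below 0 of the 72 cells were stress-high (0% to 4.99%), against 4.88% of GFP+ cones. Their *Fabp7* level was 1097 CPM, against 452 CPM in GFP+ cones. The part of these differences in the *Bcl2l1* and *Bbc3* values was not tested.

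In newborn ganglion cells 0 members were past 2-fold higher than in progenitors and 3 were lower, *Bcl2l11* 5.32-fold, *Bcl2* 3.77-fold and *Bak1* 3.58-fold, where 30.5% of all genes were past it (10.4% higher, 20.1% lower). *Bax* was 1.84-fold higher (1.67 to 2.02) and *Bcl2l1* 1.58-fold higher (1.28 to 1.94), and the interval of *Bbc3* (1.32, 0.958 to 1.79) held 1. Differentiated ganglion cells had the same 3 genes lower, *Bcl2* 5.24-fold, *Bcl2l11* 3.96-fold and *Bak1* 3.90-fold, and *Bbc3* 4.05-fold higher (3.44 to 4.76), beside 35.5% of all genes (15.2% higher, 20.3% lower). Summed progenitor markers were at 711 CPM in these cells and 398 CPM in newborn ganglion cells, and their part in the ratios was not tested. The *Bcl2* ratio of differentiated ganglion cells, -2.39 on the log2 scale, was at -1.13 with looser marker limits and -3.42 in thinned cells. In amacrine/horizontal cells 4 members were lower, *Bak1* 9.91-fold (4.78 to 24.8, 7 UMIs), *Bcl2* 3.20-fold, *Apaf1* 2.95-fold (1.22 to 9.27) and *Bcl2l11* 2.32-fold, and 0 higher, beside 33.6% of all genes (15.5% higher, 18.1% lower). The last 2 of these did not hold throughout: *Apaf1*, at -1.56 on the log2 scale, was at -0.64 in thinned cells and -0.74 with looser marker limits, and *Bcl2l11*, at -1.21, was at -0.84 with no upper limit on genes. *Mcl1* was at its highest there, 1.57-fold over progenitors (1.28 to 1.92). Neurogenic cells, defined by *Olig2*, *Neurog2* and *Atoh7*, had 1 member past 2-fold, *Bak1* at 2.18-fold lower (1.74 to 2.76), beside 10.3% of all genes (4.33% higher, 5.96% lower). *Bbc3* was lower in them too, at 11.9 CPM (9.30 to 14.9) against 21.1 CPM, 1.78-fold (1.38 to 2.33). Mitotic and other progenitors differed past 2-fold in 0 members, beside 6.16% of all genes (2.32% higher, 3.84% lower), and the ratios of the 8 members lay between 0.816 for *Bak1* and 1.09 for *Apaf1*. Only those of *Bax* (0.889, 0.815 to 0.970) and *Bak1* (0.666 to 0.995) left 1 outside their interval.

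**Figure D2:**
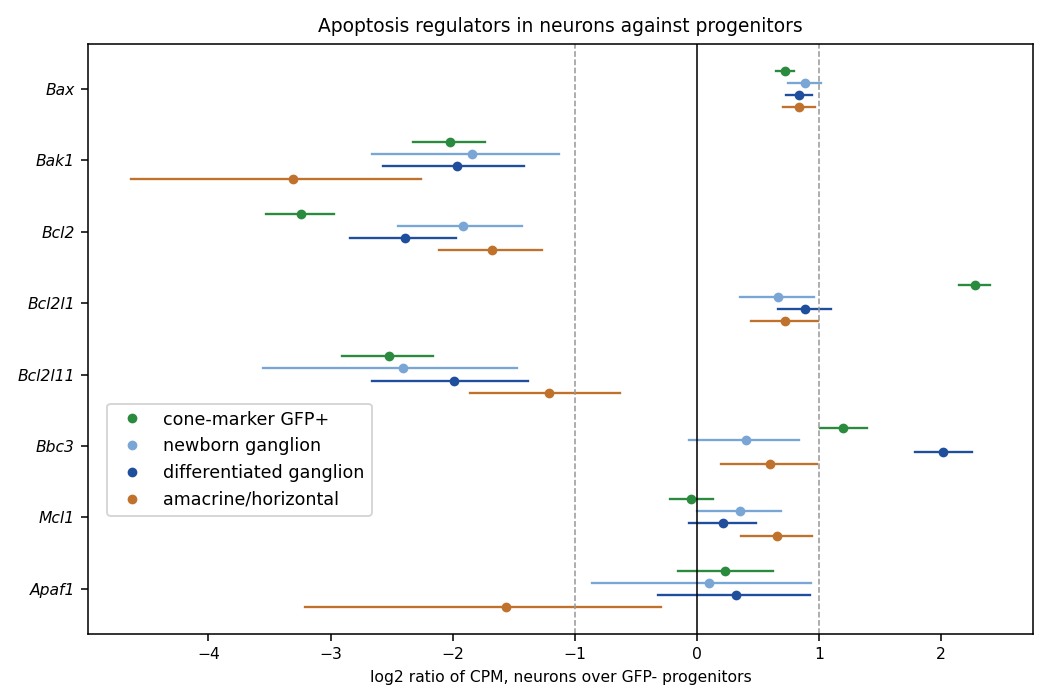
Log2 ratio of CPM of each neuron group over the same GFP- progenitors for 8 members, with exact conditional intervals (lines) and dashed lines at a 2-fold difference. *Bak1*, *Bcl2* and *Bcl2l11* lie left of 0 in all 4 neuron groups, *Bax* and *Bcl2l1* right of 0, and *Bcl2l1* reaches 2.27 in GFP+ cones while *Bbc3* reaches 2.02 in differentiated ganglion cells.

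The pair of pro-survival genes was next read within the same cells, which cancels depth. For each *Bcl2* UMI there were 0.527 *Bcl2l1* UMIs (0.477 to 0.582) in progenitors, 1.11 (0.943 to 1.32) in neurogenic cells, 2.78 (2.00 to 3.92) in amacrine/horizontal cells, 3.14 (2.13 to 4.74) in newborn ganglion cells, 5.08 (3.72 to 7.08) in differentiated ganglion cells and 24.1 (20.04 to 29.2) in GFP+ cones. The GFP- cone-marker cells had 45 *Bcl2l1* UMIs and 1 *Bcl2* UMI. The ratio of GFP+ cones lay above the intervals of all GFP- groups other than these cone-marker cells. Within GFP+ cones it was 25.7 in cells with at least 2 UMIs of *Fabp7* and 23.6 in the others, and 22.1 in cells with a *Pcp4* UMI and 24.4 in the others, all with overlapping intervals.

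The BH3-only genes were set against the pro-survival genes in the same way, as UMIs of *Bbc3*, *Bcl2l11* and *Pmaip1* per 100 UMIs of *Bcl2*, *Bcl2l1* and *Mcl1*. Progenitors had 32.4 (29.8 to 35.1), neurogenic cells 22.1 (18.6 to 26.0), newborn ganglion cells 26.1 (19.3 to 34.9), amacrine/horizontal cells 30 (23.5 to 37.9) and GFP+ cones 22.9 (21.2 to 24.7). Differentiated ganglion cells had 72.2 (62.2 to 83.7). *Bbc3* supplied 286 of their 312 BH3-only UMIs, against 323 of 747 in progenitors.

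**Figure D3:**
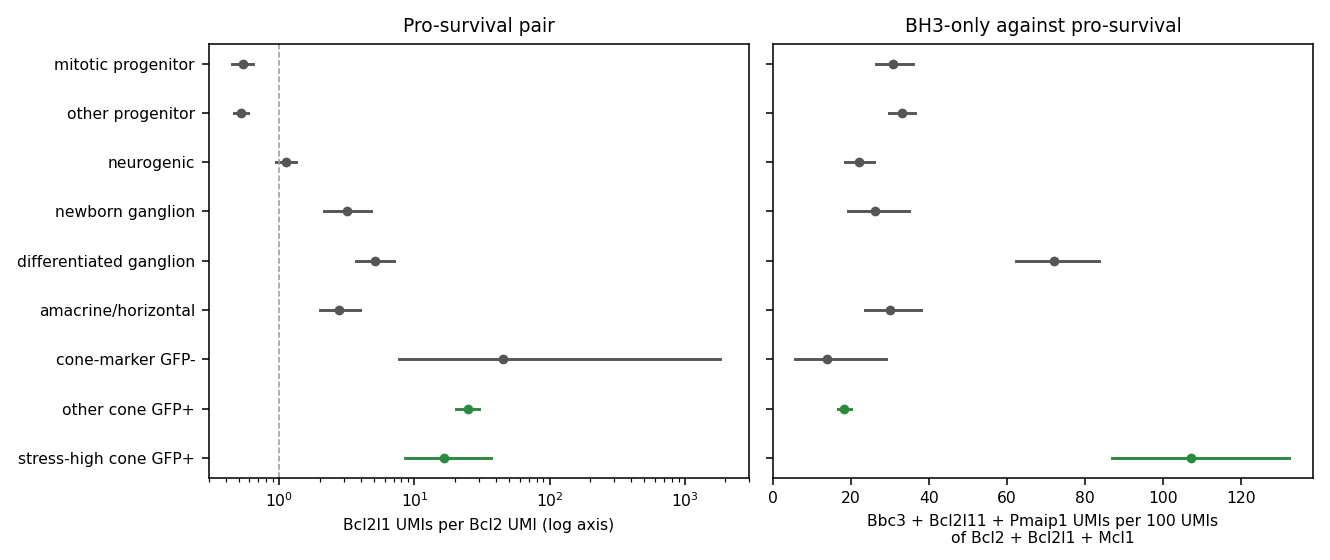
Left, *Bcl2l1* UMIs per *Bcl2* UMI (log axis, dashed line at 1), and right, BH3-only UMIs per 100 pro-survival UMIs, in 9 groups of cells, with exact conditional intervals as lines and GFP+ cells in green. The left value runs from 0.524 in non-mitotic progenitors to 24.7 in other GFP+ cones, with GFP- cone-marker cells at 45 on 1 *Bcl2* UMI, and the right value stands out in differentiated ganglion cells (72.2) and stress-high cones (107).

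*Bbc3*, which encodes PUMA, was examined further in ganglion cells, neurons whose number is later cut back by developmental death. It was at 27.9 CPM (20.7 to 36.9) in newborn and 85.5 CPM (75.9 to 96.0) in differentiated ganglion cells, 3.06-fold higher (2.26 to 4.24). Between these groups, as the rule divides them, it was the only 1 of the 8 members past 2-fold, where 15.3% of all genes were (10.7% higher, 4.53% lower). The rule separates them at 2 UMIs over *Rbpms*, *Sncg* and *Nefm*, genes of maturing ganglion cells. Ganglion cells with 0, 1 and 2 to 3 of these UMIs had *Bbc3* at 29.2, 25.8 and 28.5 CPM. Those with 4 to 7, 8 to 15 and 16 or more had 79.1 CPM (50.2 to 119), 79.0 CPM (50.6 to 118) and 102 CPM (89.0 to 116). So the difference lay above the limit the rule uses, between cells with 3 or fewer and 4 or more of these UMIs. Median depth also differed between these bins, from 9152.5 to 11862 UMIs per cell. *Bbc3* was seen in 173 of the 305 differentiated ganglion cells, 96 with 1 UMI, 51 with 2 and 26 with 3 or more, up to 5 in a cell. After thinning the share was 23.6% (19.0 to 28.8), against 8.99% (5.33 to 14.0) in newborn ganglion cells and 6.96% (5.77 to 8.30) in progenitors. Unthinned, these shares were 56.7%, 22.0% and 17.4%. With no upper limit on genes per cell, 820 differentiated ganglion cells were kept in place of 305 and *Bbc3* was at 94.4 CPM, 4.55-fold over progenitors (4.06 to 5.10).

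The intervals of the other 7 members with enough UMIs held 1 between the ganglion groups as the rule divides them, at 2 UMIs. No ratio was taken at 4 UMIs, where *Bbc3* differed, so a difference of another member there is not excluded. *Bcl2* was at 21.9, 16.7 and 42.7 CPM (27.4 to 63.5) in cells with 0, 1 and 2 to 3 of the marker UMIs. It was at 10.3, 16.5 and 7.31 CPM (4.18 to 11.9) in those with 4 to 7, 8 to 15 and 16 or more. *Bax* was at 298 and 289 CPM (ratio 0.971, 0.872 to 1.08), *Bcl2l1* at 62.7 and 73.0 CPM (1.16, 0.926 to 1.47), *Bcl2* at 19.9 and 14.4 CPM (0.720, 0.456 to 1.15) and *Mcl1* at 46.1 and 41.9 CPM (0.907, 0.685 to 1.21).

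The second group with high *Bbc3* was a small set of GFP+ cones with high levels of stress genes, defined by at least 4 UMIs over *Chac1*, *Trib3*, *Atf3*, *Slc7a3*, *Slc7a5*, *Sesn2* and *Cebpb*, known targets or partners of the transcription factor ATF4 in the integrated stress response. There were 176 such cells, 4.88% of the GFP+ cones (4.20 to 5.63). *Bbc3* was at 246 CPM (212 to 283) in them and 37.5 CPM (34.4 to 40.8) in the other 3433 cones, 6.56-fold higher (5.53 to 7.75). They held 26.5% of the 724 *Bbc3* UMIs of GFP+ cones and 5.22% of all UMIs. Of these cells 59.1% (51.4 to 66.4) had a *Bbc3* UMI, and 51.0% (42.8 to 59.1) after thinning, against 13.4% and 11.0% of the other cones. Median depth was close, 4122 and 3875 UMIs per cell.

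*Bbc3* was higher with more stress-marker UMIs on both sides of the limit. Cones with 0, 1, 2 and 3 such UMIs had 32.3 CPM (29.1 to 35.8), 46.2 CPM (37.2 to 56.6), 73.9 CPM (53.01 to 100.2) and 133 CPM (89.7 to 190). Just inside the limit, cones with 4 to 5 had 125 CPM (85.2 to 178), and those with 6 or more had 302 CPM (257 to 352). *Bcl2l1* showed no such order, at 195, 176, 177, 168, 162 and 204 CPM over the same bins.

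**Figure D4:**
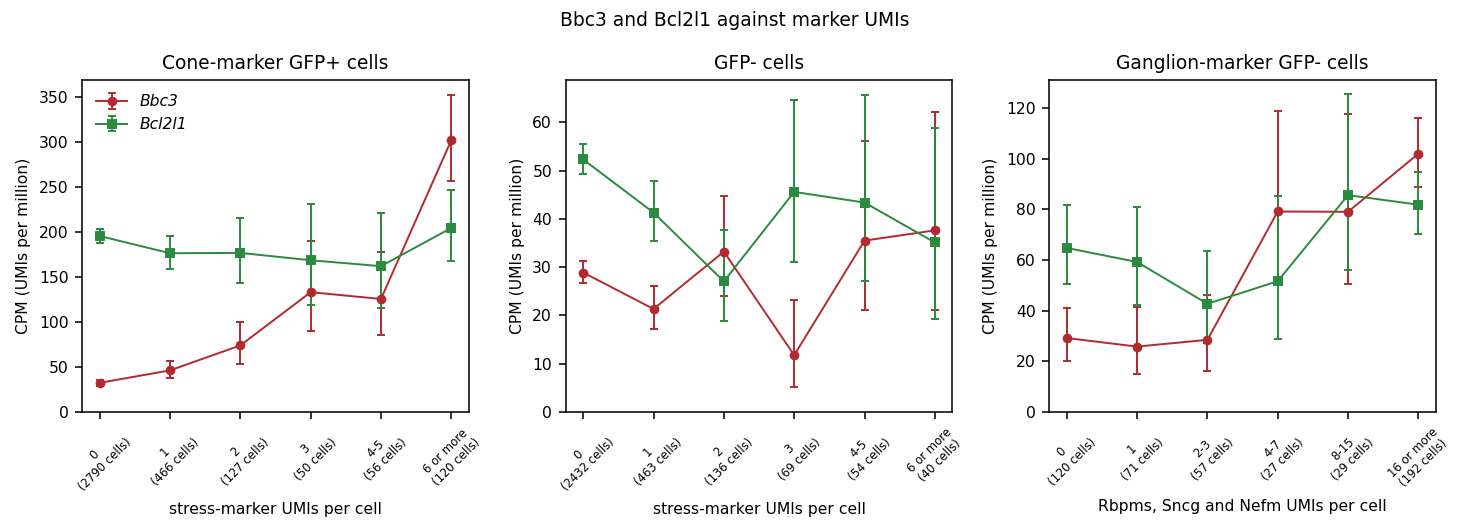
*Bbc3* (red circles) and *Bcl2l1* (green squares) in CPM with exact Poisson intervals, in cells binned by stress-marker UMIs (GFP+ cones, left, and GFP- cells, centre) or by UMIs of *Rbpms*, *Sncg* and *Nefm* (ganglion cells, right). *Bbc3* goes from 32.3 to 302 CPM across the cone bins and from 29.2 to 102 CPM across the ganglion bins, while its intervals overlap between most bins of the GFP- cells.

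Of the remaining members in stress-high cones, *Bcl2l1* and *Bax* were near their level in other cones. *Bcl2l1* was at 191 CPM in both (ratio 0.997, 0.839 to 1.18), *Bax* at 315 and 264 CPM (1.19, 1.04 to 1.36) and *Mcl1* at 26.9 and 35.4 CPM (0.759, 0.465 to 1.17). *Bcl2* (1.49, 0.662 to 2.93) and *Apaf1* (1.45, 0.645 to 2.85) had 9 UMIs each in stress-high cones, and their wide intervals held 1. *Bak1* was 2.40-fold higher (1.27 to 4.21) on 14 UMIs. *Bcl2l11* had 0 UMIs in the stress-high cones, with an upper limit of 4.72 CPM by the exact interval, against 5.003 CPM in the other cones, and was thus at least 1.03-fold lower by the interval of the ratio. These made 2 members higher and 1 lower of 8, with *Bcl2l11* counted as lower from its 0 UMIs though its bound is under 2-fold, beside 13.5% of all genes (5.96% higher, 7.56% lower). BH3-only UMIs per 100 pro-survival UMIs came to 107 (87.0 to 132) in stress-high and 18.4 (16.8 to 20.04) in other cones. *Bbc3* was the source of all 192 of these UMIs in stress-high cones. Of the 176 cells 52 had both *Bbc3* and *Bcl2l1*, 52 only *Bbc3*, 39 only *Bcl2l1* and 33 neither.

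Of 8 inducers of BH3-only genes with enough UMIs 2 were past 2-fold higher in the same cells and 0 lower, beside 5.96% of all genes higher and 7.56% lower, which is also the background of the list counts that follow for these cells. *Ddit3*, the stress factor CHOP, was at 485 against 84.6 CPM (5.74-fold, 5.10 to 6.45). Of the 104 stress-high cones with *Bbc3*, 88 also had *Ddit3*. Most stress-high cones without *Bbc3* had it too, 56 with *Ddit3* against 16 without, so the count does not set the cells with *Bbc3* apart. *Atf4* was at 941 against 382 CPM (2.46-fold, 2.28 to 2.66). *Ddit3* and *Atf4* belong to the same stress response as the genes that define these cells. Their higher levels, and the count of inducers that rests on them, are therefore not independent of the stress rule. Of 10 genes of the p53 list 2 were higher and 1 lower. *Cdkn1a*, an inhibitor of the cell cycle, was at 128 against 11.8 CPM (10.9-fold, 8.41 to 14.0) and *Phlda3* was 2.51-fold higher (1.51 to 3.98), while *Trp53inp1* was lower, at 8.96 against 29.2 CPM. *Trp53* itself was at 97.3 and 92.9 CPM. In stress-high cones with *Bbc3*, 37 cells had *Cdkn1a* and 67 did not, against 9 and 63 of those without *Bbc3*, a difference that was not tested. Of 6 other pro-apoptotic effectors and BH3-only genes 3 were higher and 0 lower. *Hrk*, a neuronal BH3-only gene, had 20 UMIs in the stress-high and 11 in the other cones, 25.6 against 0.775 CPM (33.0-fold, 15.1 to 76.3). *Bmf*, another, was 2.21-fold higher (1.17 to 3.86), and the third was *Bik* on 3 UMIs. Of 5 death receptor genes 0 were higher and 3 lower, *Fadd* on 0 UMIs, *Ripk1* on 1 and *Tradd* on 4, and the intervals of all 3 ratios held 1. The summed genes of dissociation and heat shock were at 716 CPM in stress-high and 549 CPM in other cones, with 1 of 9 at 0 in the former and 0 in the latter, and their part in the result was not tested. Leaving the stress-high cells out of cones and progenitors took *Bbc3* from 2.29-fold to 1.82-fold higher in cones (1.58 to 2.102), below 2-fold.

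Among GFP- cells outside the cone and mixed groups 94 were stress-high by the same rule, 76 of them progenitors, 12 neurogenic cells, 5 differentiated ganglion cells and 1 unassigned. *Bbc3* was at 36.4 CPM (25.1 to 51.2) in them and 27.5 CPM (25.6 to 29.5) in the other 3100 cells, a ratio of 1.33 (0.906 to 1.88). Among progenitors alone the ratio was 1.51 (0.940 to 2.30). With no upper limit on genes, 124 stress-high and 4078 other GFP- cells gave a *Bbc3* ratio of 1.01 (0.757 to 1.32). Over 0, 1, 2, 3, 4 to 5 and 6 or more stress-marker UMIs, GFP- cells had *Bbc3* at 28.9, 21.3, 33.2, 11.8, 35.5 and 37.6 CPM, in no steady order. *Ddit3* was 4.82-fold higher (3.799 to 6.05) in these cells, at 96.0 against 19.9 CPM, which is again not independent of the stress rule. *Bax* was lower, at 127 against 202 CPM (1.59-fold, 1.32 to 1.93). Among progenitors alone, the group of most stress-high cells, the *Bax* ratio was nearer 1, at 0.716 (0.571 to 0.887). Of 8 members 0 were past 2-fold, beside 20.8% of all genes (5.55% higher, 15.3% lower). Summed microglia markers were at 138 CPM in these 94 cells and 7.33 CPM in the others, with 0 of 5 at 0 in either, and their part in these values was not tested. The rule counts UMIs, and GFP- cells were deeper (median 9607.5 against 4122 UMIs for the stress-high cells of each gate), so it is looser in GFP- cells. Whether the *Bbc3* ratio differed between the gates was not tested.

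Within GFP+ cones the other subsets differed past 2-fold in at most 1 member. Cones with at least 2 *Fabp7* UMIs had *Bbc3* at 34.0 CPM against 53.4 CPM in the rest (1.57-fold lower, 1.30 to 1.91). *Bak1* was 2.88-fold lower in them (1.62 to 5.59) on 13 UMIs, the only member past 2-fold, beside 4.85% of all genes (1.28% higher, 3.58% lower). The *Fabp7* level was itself 166 CPM in stress-high and 468 CPM in other cones, and the part of stress-high cells in the *Bbc3* value was not tested. Cones with a *Pcp4* UMI had 0 members past 2-fold, beside 5.11% of all genes (1.34% higher, 3.78% lower), with *Bcl2l1* at 217 against 188 CPM (1.15, 1.03 to 1.29) and *Apaf1* at 12.9 against 7.57 CPM (1.70, 1.01 to 2.74).

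The wider pathway was read from lists of related genes, each compared with progenitors. The shares of all genes past 2-fold to set beside the counts are 28.7% higher and 14.9% lower in GFP+ cones, 15.2% and 20.3% in differentiated ganglion cells, and 15.5% and 18.1% in amacrine/horizontal cells. Of 6 other pro-apoptotic effectors and BH3-only genes, 2 were past 2-fold higher in GFP+ cones than in progenitors and 1 lower. *Bmf* was at 8.62 against 0.654 CPM (13.2-fold, 6.94 to 28.1) and *Hrk* at 2.07 against 0.196 CPM, the latter from 3 UMIs in progenitors (10.6-fold, 3.29 to 54.0). By the counts given above, the few stress-high cones held most of the *Hrk* UMIs of GFP+ cones, and no *Hrk* ratio was taken without them. *Bok*, a relative of *Bax*, was at 1.34 against 18.6 CPM. Their median log2 ratio was -0.01, against 0.41 for all genes. In differentiated ganglion cells *Hrk* was higher too, at 7.18 against 0.196 CPM (36.6-fold, 11.1 to 190), and *Bik* lower on 1 UMI, the only 2 of 5 past 2-fold.

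Of the apoptosome and caspases values are given for 2 genes only, with no count over the list. *Casp8*, the caspase of death receptors, was lower in GFP+ cones, at 0 UMIs in the 3609 GFP+ cones against 85 in progenitors. In differentiated ganglion cells *Casp9* was 2.01-fold higher (1.49 to 2.68) and *Casp8* was lower. Of 7 caspase inhibitors and their antagonists, *Birc2* (48.8 against 15.8 CPM) and *Birc3* (1.34 against 0.327 CPM) were higher in GFP+ cones, and *Birc5*, survivin, which also serves in mitosis, was at 2.00 against 282 CPM. *Birc5* was also the only 1 of these lower in newborn ganglion (61.0 CPM), differentiated ganglion (45.2 CPM) and amacrine/horizontal cells (13.2 CPM). Of 8 mitochondrial release and channel genes, *Vdac1* alone was past 2-fold in GFP+ cones (2.01-fold higher, 1.93 to 2.095), and 0 were in differentiated ganglion or amacrine/horizontal cells.

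Of the upstream inducers of BH3-only genes 9 of 10 had enough UMIs, and 6 were higher and 2 lower in GFP+ cones than in progenitors, beside 28.7% and 14.9% of all genes. The highest ratios were those of *Ddit3* (4.90-fold, 4.35 to 5.54), *Atf4* (3.24-fold), *Map3k12* (3.04-fold) and *Foxo3* (3.02-fold), and the lower genes were *E2f1* (39.5 against 98.9 CPM) and *Mapk10* (0.601 against 3.27 CPM). In differentiated ganglion cells 3 were higher, *Mapk10* (10.8-fold, 7.69 to 15.3), *Map3k12*, the axon injury kinase DLK (3.92-fold, 3.05 to 5.04), and *Mapk8* (3.08-fold, 2.57 to 3.68), and 3 were lower, *Foxo1*, *Foxo3* and *E2f1*, beside 15.2% and 20.3% of all genes. *Ddit3* was not past 2-fold there. Of 10 p53 genes with enough UMIs 5 were higher in GFP+ cones, led by *Trp53inp1* (28.2 against 1.504 CPM), *Sesn1* (3.99-fold), *Ccng1* (2.82-fold) and *Zmat3* (2.79-fold), and *Aen* was lower. In differentiated ganglion cells *Trp53inp1* alone was past 2-fold (7.16-fold, 4.13 to 12.7).

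Of the neurotrophin and survival receptors values are given for 4 genes, with no count over the list. In GFP+ cones against progenitors *Ret*, the receptor of glial cell line-derived neurotrophic factor, was at 43.8 against 0.981 CPM (44.7-fold, 26.9 to 80.3) and its partner *Gfra1* at 39.3 against 2.16 CPM (18.2-fold, 12.8 to 26.7). *Ntrk3* was at 8.15 against 0.719 CPM (11.3-fold, 6.11 to 23.3), while the related *Ntrk2*, the receptor of brain-derived neurotrophic factor, was at 0.468 against 7.98 CPM. In differentiated ganglion cells *Ntrk2* was higher, at 37.7 CPM (4.72-fold, 3.65 to 6.11), as were *Ret* (14.6-fold), *Ntrk3* (13.7-fold) and *Gfra1* (4.44-fold). Of 6 death receptor genes with enough UMIs 1 was higher and 2 lower in GFP+ cones, and 1 was higher and 3 lower both in differentiated ganglion and in amacrine/horizontal cells. *Cflar*, an inhibitor of death receptor signalling, was 2.03-fold higher in GFP+ cones (1.77 to 2.32) and 2.42-fold lower in differentiated ganglion cells. *Ngfr*, the p75 receptor, was higher in differentiated ganglion cells (43.1 against 10.46 CPM, 4.12-fold, 3.26 to 5.19) and amacrine/horizontal cells (36.7 CPM), and lower in GFP+ cones, with 4 UMIs. *Tnfrsf1a*, a receptor of tumour necrosis factor, was 2.45-fold lower in differentiated ganglion and 2.12-fold lower in amacrine/horizontal cells, and *Ripk1* was lower in the latter on 1 UMI. *Fadd*, the adaptor of death receptors, was lower in all 4 neuron groups, at 2.28, 4.19, 5.64 and 3.87 CPM in newborn ganglion, differentiated ganglion, amacrine/horizontal and GFP+ cone cells against 11.8 CPM in progenitors. In newborn ganglion cells 0 of these 6 genes were higher and 2 lower, *Fadd* and, on 1 UMI, *Ripk1*, beside 10.4% of all genes higher and 20.1% lower.

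Among 10526 genes with at least 200 UMIs, those whose levels ran most like a member's over the 9 groups that share no cell were named, as a description of 9 points only. For *Bcl2l1* they were *Syp* (Pearson r of log2 levels 0.993), *Nkiras2* (0.992) and *Pcdh15* (0.990), and for *Bcl2* they were *Sox13* (0.986), *Slc25a15* (0.980) and *A830082K12Rik* (0.976). For *Bcl2l11* they were *D10Wsu102e* (0.983), *Fadd* (0.982) and *Nrarp* (0.980), and for *Bbc3* they were *Adar* (0.976), *Scyl2* (0.945) and *Rims3* (0.944). For *Bax* they were *Irgq* (0.984), *Uba1* (0.983) and *Kctd8* (0.982), and for *Bak1* they were *Bex1* (0.954), *Plpp3* (0.9501) and *Itpripl1* (0.946). For *Mcl1* they were *F2r* (0.966), *Fjx1* (0.9497) and *Fam32a* (0.944), and for *Apaf1*, with fewer UMIs, *Nhsl2* (0.903), *Plppr1* (0.901) and *Zdbf2* (0.891). None is given for *Pmaip1*, whose 23 UMIs do not set an order of groups. The 9 points come from 2 libraries of different depth.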

How the data were processed

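The deposited values are raw UMI counts of 2 libraries, 1 per gate, given by gene and cell without normalization. The authors made them from 10x Chromium 3′ v2 libraries with Cell Ranger 2.1.1 (submitters' processing notes) and mm10 (GRCm38). The files held 3728 GFP+ cells (16010591 UMIs) and 4445 GFP- cells (46778924 UMIs), with 20 barcodes in common, from about 4000 cells per gate. Cells with at least 250 and under 3500 genes and a mitochondrial fraction under 0.25 (printed in the methods with a percent sign, read here as a fraction) were kept, which removed 39 GFP+ and 1055 GFP- cells for too many genes. Scrublet (scanpy 1.11.5, expected rate 0.03) called 3 GFP+ (0.0805%) and 55 GFP- (1.24%) cells doublets, too few in GFP+ to serve as a check. Of these, 2 and 0 were among the kept cells and stayed in.

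Cells were grouped by summed marker UMIs. Cones had at least 3 over *Gngt2*, *Thrb*, *Rxrg*, *Gnb3*, *Pdc* and *Gnat2*. Ganglion cells had at least 3 over *Pou4f2*, *Pou4f1*, *Isl1*, *Rbpms*, *Sncg* and *Nefm*, and were called differentiated with at least 2 over the last 3 genes, otherwise newborn. Amacrine/horizontal cells had at least 2 over *Tfap2a*, *Tfap2b*, *Ptf1a* and *Prdm13*. Of the rest, neurogenic cells had at least 2 over *Olig2*, *Neurog2* and *Atoh7*, and progenitors at least 3 over *Sfrp2*, *Hes1*, *Nr2e1*, *Fgf15*, *Ccnd1* and a further gene that is not reported here, called mitotic with at least 3 over *Cdc20*, *Ccnb1*, *Ube2c*, *Plk1* and *Aurka*. Cells meeting more than 1 neuron rule (11 GFP+ and 123 GFP-) were set aside.

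Each group's UMIs were added up and scaled to 1000000, with exact Poisson intervals for levels, exact conditional binomial intervals for ratios and Clopper-Pearson intervals for shares, all at 95% and for counting error only. The interval code was tested on simulated data. For shares, cells were thinned to 3200 UMIs, leaving out 579 GFP+ and 28 GFP- shallower cells. All 9 members are named, and of the list genes those past 2-fold with at least 20 UMIs, at most 4 a direction and comparison. Further list genes were named, and the bins of marker UMIs chosen, after their values were seen. The 9 lists (68 genes), the markers and the members were chosen with earlier results of these data known. Gene models were those of GENCODE M21. TMM factors came from edgeR 4.0.16 in R 4.3.3, and all else from Python 3.11.15 with scipy 1.17.1, pandas 2.3.3 and numpy 2.4.6.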

Additional observations from a re-analysis of the deposited data

How the results depend on the processing

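No paired analysis was possible because each gate is 1 library and no result comes from a test, and no replicate could be left out. The alternatives were other limits on genes and mitochondrial reads, no filter, doublets left out, marker limits raised by 2 or lowered by 1 UMI, thinned cells, means over cells per 10000, TMM factors, mean UMIs per cell, no UMI minimum and a 1.5-fold limit. Leaving out stress-high cells, progenitors alone, and GFP- cone-marker cells were added after seeing the data. Of the member ratios recomputed, 609 stayed within their counting interval, 77 moved further and 1 called ratio reversed. The 609 include ratios that could not move, since leaving out doublets removed 0 kept GFP- cells. They also include ratios of members with few UMIs, such as *Pmaip1*, whose intervals are wide. The reversed value was *Bbc3* in cones over progenitors, at -0.46 (log2) with GFP- cone-marker cells in place of GFP+ cones, from 1.195, and this ratio was past 2-fold in 8 of 12 settings. For stress-high GFP- cells the count of members past 2-fold went from 0 to 1 with stricter markers, 8 with thinned cells (which left 5 stress-high cells), 1 with no minimum and 3 at 1.5-fold. For mitotic progenitors it went from 0 to 1 with thinned cells. At 1.5-fold it was 5 (from 3) in newborn ganglion and 8 (from 4) in amacrine/horizontal cells. In mean UMIs per cell, unscaled, *Bcl2l1* was 0.83 (log2) higher in the GFP+ library, under 2-fold, as GFP+ cells held fewer UMIs, and the uncalled *Bax* and *Bbc3* turned to -0.69 and -0.36. TMM factors put the median gene of the gate comparison at -0.02 and mean UMIs per cell at -0.77, from 0.31. In thinned cells *Bak1* in stress-high cones was at 0.48 (log2), from 1.26. Depth limits *Pmaip1* in every group and *Apaf1*, *Bak1* and *Bcl2l11* in the smaller neuron groups.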
